A study of Homo sapiens with 24 samples.

Results

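The genes described here are 10 members of the Notch pathway in human prostate cancer cells. They are the receptors NOTCH1, NOTCH2 and NOTCH3, the ligands JAG1 and JAG2, and the transcriptional repressors HES1, HES2, HES4, HES6 and HEY1. Their probes were chosen by gene symbol in the array annotation. The set itself was selected on these same arrays, because HES2 had risen with both treatments in both cell lines. HES2 is therefore given as a description, with no test, and the other 9 genes were read from a fit over all genes. The 10 genes stand among 13789 genes compared, and 16 of the 47311 probes on the array are annotated to them. A probe was kept when its detection p-value was under 0.05 on at least 3 of the 24 arrays. Of the 16 probes 14 were kept, each of the 10 genes had at least 1, and both probes that were left out belong to NOTCH2.

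The study profiled 2 human prostate cancer lines on Illumina bead arrays, with 1 array per sample, 8 groups and 3 arrays per group. LNCaP is an androgen-responsive line from a lymph node metastasis, and C4-2B is a castration-resistant line derived from it. In each line, cells had been given DMSO, the solvent control, or EPZ6438 at 1 µM for 3 days, and other cells had been transfected for 3 days with a control siRNA (siControl) or with siEZH2, which the labels describe as directed at the coding sequence of EZH2. All groups were grown in RPMI medium with fetal bovine serum. EZH2 is the enzyme of the Polycomb complex that methylates histones at silenced genes, and EPZ6438 (tazemetostat) blocks that enzyme activity while siEZH2 lowers the EZH2 transcript. The series' title places the comparison around roles of EZH2 that do not need its methyltransferase activity. A single siRNA against EZH2 is named. The labels number the replicates without saying whether each was its own culture. The spread behind every p-value is therefore that among these arrays and may be technical.

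Notch receptors span the membrane and are activated when a Jagged or Delta-like ligand on a neighbouring cell binds them. An ADAM protease and then gamma-secretase cut the receptor, and the freed intracellular part enters the nucleus, binds the DNA-binding protein RBPJ and switches on target genes. Genes of the HES and HEY families are the best known of these targets, and their basic helix-loop-helix proteins repress genes of differentiation. HES6 is an atypical relative that opposes HES1, and in the prostate Notch signalling is known for its part in the fate of basal and luminal epithelial cells.

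Promoters of 4 of the genes are printed as examples with and without the letters bound by RBPJ. They are those of HES1 and HES4, which hold them, of HES2, whose rise selected the set, and of NOTCH1, which had the highest tested change with siEZH2. The windows are from RefSeq (GRCh38.p14), run from 250 bases before to 50 bases after the annotated start, and are written along the strand of the gene, with each TGGGAA, the core of the RBPJ motif, in capitals. The HES1 window is chr3:194135898-194136197 (plus strand), HES4 is chr1:1000048-1000347 (minus), HES2 is chr1:6419870-6420169 (minus) and NOTCH1 is chr9:136545999-136546298 (minus).
HES1: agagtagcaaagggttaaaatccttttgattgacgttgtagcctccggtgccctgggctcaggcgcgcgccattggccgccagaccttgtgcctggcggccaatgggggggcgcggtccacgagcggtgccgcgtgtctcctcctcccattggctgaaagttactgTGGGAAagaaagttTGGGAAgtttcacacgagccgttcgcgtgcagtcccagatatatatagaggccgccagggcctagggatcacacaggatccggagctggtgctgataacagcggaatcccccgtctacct
HES4: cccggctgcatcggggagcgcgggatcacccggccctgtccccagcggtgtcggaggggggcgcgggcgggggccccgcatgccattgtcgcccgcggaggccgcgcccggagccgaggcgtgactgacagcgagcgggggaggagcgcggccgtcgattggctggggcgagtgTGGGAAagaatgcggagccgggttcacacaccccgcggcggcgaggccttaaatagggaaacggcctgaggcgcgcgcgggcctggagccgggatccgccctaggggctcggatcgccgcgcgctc
HES2: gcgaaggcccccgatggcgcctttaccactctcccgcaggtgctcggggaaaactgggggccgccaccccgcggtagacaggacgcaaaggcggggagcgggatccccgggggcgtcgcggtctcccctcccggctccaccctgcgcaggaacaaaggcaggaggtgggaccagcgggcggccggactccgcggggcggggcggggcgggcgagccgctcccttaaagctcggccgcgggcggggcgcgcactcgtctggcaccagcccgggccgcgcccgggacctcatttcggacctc
NOTCH1: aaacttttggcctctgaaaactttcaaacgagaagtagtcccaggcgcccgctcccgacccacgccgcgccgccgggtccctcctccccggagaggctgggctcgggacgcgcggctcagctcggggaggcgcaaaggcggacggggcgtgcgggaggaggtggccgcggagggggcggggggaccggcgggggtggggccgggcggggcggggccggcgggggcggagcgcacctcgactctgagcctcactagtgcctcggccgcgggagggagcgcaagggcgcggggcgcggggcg

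TGGGAA was found on the written strand at positions -84 and -70 from the start of HES1 and at -76 from the start of HES4, and on neither strand in the windows of HES2, HES6, NOTCH1, NOTCH2, NOTCH3, JAG1 and JAG2. Of 35116 promoters of the same length, 24% hold it on one strand or the other. Matches in 2 of the 9 windows here lie near that share. Of the 10 genes 9 had a promoter in the table, all but HEY1. The HES2 window holds 39 CpG dinucleotides, against a median of 14 over all promoters, and 91.3% of promoters have fewer. It is not particular in this, since JAG2 (46), HES4 (44), HES6 (43) and NOTCH1 (42) hold more. The N box (CACNAG), letters that HES proteins bind, was found on either strand in 4 places at HES1, in 2 overlapping places at NOTCH1, in 1 place each at HES2, NOTCH2 and NOTCH3, and in 38% of all promoters. The class C site (CACGNG), also bound by HES proteins, was found in 4 places at HES1, 2 at JAG2 and 1 each at NOTCH2, NOTCH3 and JAG1, and in 30.5% of all promoters; a CACGAG is counted under both motifs, as happened at HES1, NOTCH2 and NOTCH3. A match is a match of letters only.

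The arrays detected 40.8% to 45.8% of the probes each, and replicate arrays of a group correlated at r between 0.986 and 0.997. The EZH2 transcript fell by 0.87 log2 units with siEZH2 in LNCaP (SE 0.16, limma adjusted p = 0.000174) and fell by 1.02 (SE 0.16, adjusted p = 7.16e-05) in C4-2B. The EPZ6438 difference of the transcript was -0.12 (adjusted p = 0.739) and 0.00 (adjusted p = 0.996). Of 13 listed markers of luminal prostate epithelium 11 were measured, and all 11 were detected on all 24 arrays. Of listed markers of other cells, 2 of 7 basal and 1 of 8 endothelial genes passed the filter. So did 5 of 10 fibroblast or smooth muscle and 3 of 7 blood cell genes. A probe was present for 5 of the basal and 6 of the blood cell genes. The luminal list moved with the siRNA: in LNCaP 8 of its 11 genes fell with siEZH2 and 1 rose, and its summed background-corrected intensity was 14399 to 15654 on siControl arrays and 8435 to 8608 on siEZH2 arrays. In C4-2B 4 fell and 1 rose, with sums of 4446 to 5193 and 4208 to 4876. With EPZ6438, 4 rose and 1 fell in LNCaP and 5 rose and 1 fell in C4-2B. Of all genes 12.5% fell and 14.2% rose with siEZH2 in LNCaP and 8.53% fell and 10.1% rose in C4-2B, and with EPZ6438 2.68% fell and 4% rose in LNCaP and 7.04% fell and 8.14% rose in C4-2B. The 5 fibroblast or smooth muscle genes had a summed intensity of 502 to 579 with siControl and 732 to 781 with siEZH2 in C4-2B (2 called higher), and 119 to 137 and 164 to 184 in LNCaP (1 called higher). The part of these shifts in the values of the Notch genes was not tested, and in RNA from whole cultures fewer cells of a type and less RNA per cell cannot be told apart.

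With siEZH2 NOTCH1, NOTCH2 and JAG2 rose in both lines, NOTCH3 rose in C4-2B, and JAG1 and HEY1 rose in LNCaP. HES6 fell in LNCaP and HES4 fell in C4-2B. With EPZ6438 no gene of the 9 passed the test in LNCaP, while JAG1 and HEY1 rose in C4-2B. The count of the 9 tested genes was thus 5 higher and 1 lower with siEZH2 in LNCaP, where 26.7% of all genes were called (14.2% higher and 12.5% lower), and 4 higher and 1 lower in C4-2B, where 18.7% were called (10.1% higher and 8.53% lower). It was 0 with EPZ6438 in LNCaP by limma (2 of the 9, HES1 and HES6, had an unadjusted p under 0.05), where 6.68% of all genes were called (4% higher and 2.68% lower), and 2 higher in C4-2B, where 15.2% were called (8.14% higher and 7.04% lower). Calls were made below an adjusted p of 0.05 (limma, Benjamini-Hochberg over all 13789 genes). The selection drew on these comparisons, so nothing is read from the counts. The median log2 change of the 9 genes was 0.35, -0.06, 0.02 and 0.30 in these comparisons, in the same order, and that of all genes was 0.02, 0.03, 0.01 and 0.00.

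The split of all calls depends on the scaling. When arrays were centred on the median of all probes in place of quantile normalisation, 86.2% of the siEZH2 calls in LNCaP were higher, against 53.3%, and 93.1% in C4-2B, against 54.3%. The median of all genes then shifted by 0.184 and 0.21. Centred on the probes detected on all arrays it shifted by -0.12 and -0.136, and 40.4% of the C4-2B calls were higher. For EPZ6438 the centring on all probes gave 92.9% higher, against 59.9%, in LNCaP and 68.3%, against 53.6%, in C4-2B.

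**Figure D1:**
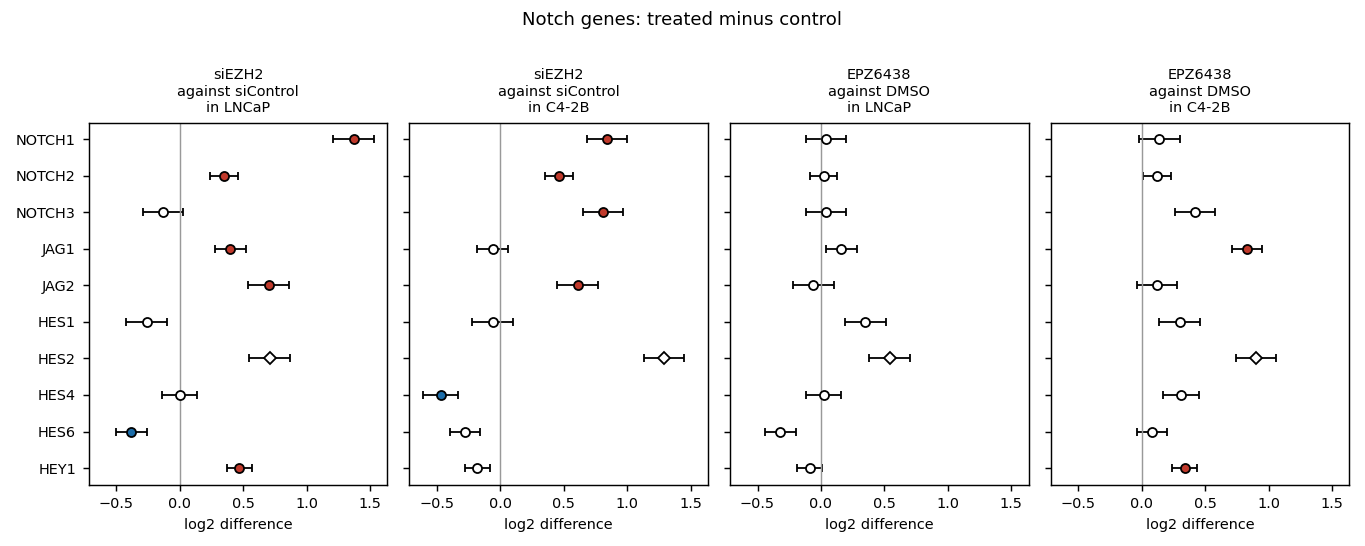
Log2 difference between treated and control arrays (x axis, 3 arrays per group) for the 10 genes in the 4 treatment comparisons. Bars are standard errors from the fit over 24 arrays, red points were called higher, blue points lower, white circles were not called and white diamonds (HES2) were not tested. NOTCH1 lies at 1.37 and 0.84 with siEZH2 and at 0.04 and 0.14 with EPZ6438, and JAG1 lies at 0.83 with EPZ6438 in C4-2B.

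NOTCH1, a receptor encoded at chr9:136494433-136546048 (GRCh38.p14), had the highest change of the tested genes. In LNCaP its log2 intensities were 8.09, 8.01 and 8.19 on the siControl arrays and 9.59, 9.25 and 9.55 on the siEZH2 arrays. Every siEZH2 array lay above every siControl array, and the rise was 1.37 (SE 0.16, 95% interval 1.03 to 1.70), or 2.58-fold, with an adjusted p of 6.6e-07 in limma. In C4-2B the siControl arrays read 7.87, 7.88 and 8.18 and the siEZH2 arrays 8.96, 8.35 and 9.13. The groups again did not overlap, with siEZH2 replicate 2 the closest to the controls, and the rise was 0.84 (SE 0.16), or 1.79-fold (adjusted p = 0.000698). These siEZH2 arrays did overlap the C4-2B DMSO arrays, which read 8.35 to 8.53. Both calls held in all 18 alternatives tried for each, with changes of 1.13 to 1.70 in LNCaP and 0.66 to 1.18 in C4-2B. The rise in C4-2B minus that in LNCaP was -0.53 (SE 0.23, adjusted p = 0.196), which did not pass the test.

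NOTCH1 did not pass the test with EPZ6438. The LNCaP values were 7.93, 7.75 and 7.95 with DMSO and 7.64, 7.90 and 8.23 with EPZ6438, a difference of 0.04 with a 95% interval of -0.29 to 0.38. The C4-2B values were 8.53, 8.47 and 8.35 with DMSO and 8.59, 8.41 and 8.78 with EPZ6438, a difference of 0.14 (-0.20 to 0.47). The groups overlapped in both lines. The siEZH2 change exceeded the EPZ6438 change by 1.32 in LNCaP (SE 0.23, limma adjusted p = 0.000207), a call that held in all 24 alternatives. In C4-2B it exceeded it by 0.70 (SE 0.23, adjusted p = 0.043). That second call was lost without DMSO replicate 1 or 2 (adjusted p = 0.0887 and 0.0787), EPZ6438 replicate 1 or 2 (0.0726 and 0.107), siControl replicate 1 or 2 (0.094 and 0.0952), or siEZH2 replicate 1 or 3 (0.103 and 0.139), and it was also lost without a filter (0.0667), with the authors' processed table (0.0518), with only the compared arrays (0.0778) and with either centring (0.235 and 0.0676). Leaving out all arrays numbered 1, 2 or 3 lost it too (0.342, 0.0711 and 0.0577).

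NOTCH2 (chr1:119911553-120069662) had smaller rises. Of its 3 probes 1 was detected on 1 array and 1 on none, and the values are from the remaining probe. In LNCaP it read 5.79 to 5.83 on the siControl arrays and 6.11 to 6.22 on the siEZH2 arrays, a rise of 0.35 (SE 0.11, limma adjusted p = 0.0234). In C4-2B it read 5.76 to 5.95 and 6.27 to 6.40, a rise of 0.46 (SE 0.11, adjusted p = 0.00534). Neither pair of groups overlapped. The LNCaP call was lost without siControl replicate 1, 2 or 3 (adjusted p = 0.0598, 0.0505 and 0.0659) and without siEZH2 replicate 2 or 3 (0.0766 and 0.0525), and with centring on all probes (0.61, adjusted p = 0.0922). It was also lost without all arrays numbered 1, 2 or 3 (adjusted p = 0.0593, 0.169 and 0.0999). The C4-2B call was lost without all arrays numbered 2 or 3 (adjusted p = 0.0522 and 0.078). Without background correction the rises were 0.14 and 0.20, both called. With EPZ6438 the differences were 0.02 (95% interval -0.22 to 0.25) in LNCaP and 0.12 (-0.11 to 0.35) in C4-2B. NOTCH2NLA is a partial copy of NOTCH2, and a probe annotated to it, detected on all 24 arrays, differed by 0.23 and 0.18 (SE 0.12) with siEZH2 in LNCaP and C4-2B, so the NOTCH2 values are uncertain as far as the probe may read both transcripts.

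NOTCH3 (chr19:15159038-15200995) moved with siEZH2 in C4-2B and did not pass the test in LNCaP. In C4-2B its values were 7.07, 6.96 and 7.45 on the siControl arrays and 7.84, 8.12 and 7.95 on the siEZH2 arrays. The groups did not overlap, and the rise was 0.81 (SE 0.16), or 1.75-fold (limma adjusted p = 0.0011), a call kept in all 18 alternatives. These siEZH2 arrays did overlap the C4-2B DMSO arrays, which read 7.66 to 7.89. In LNCaP the values were 6.82, 6.63 and 6.85 with siControl and 6.85, 6.28 and 6.78 with siEZH2. These overlapped, with a difference of -0.13 (95% interval -0.47 to 0.21). The change in C4-2B minus that in LNCaP was 0.94 (SE 0.23, adjusted p = 0.0183). That difference lost its call without LNCaP siControl replicate 3 (adjusted p = 0.0501), LNCaP siEZH2 replicate 2 (0.0536), C4-2B siControl replicate 2 (0.0612) or C4-2B siEZH2 replicate 2 (0.0553), and with centring on all probes (1.03, adjusted p = 0.485). It was also lost without all arrays numbered 2 or 3 (adjusted p = 0.325 and 0.0669). With EPZ6438 the C4-2B values went from 7.89, 7.66 and 7.66 to 7.99, 8.21 and 8.27, without overlap but with an adjusted p of 0.0923 in limma (difference 0.42, 95% interval 0.08 to 0.76). In LNCaP the EPZ6438 difference was 0.04 (-0.30 to 0.38).

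JAG1 and JAG2 encode ligands that present themselves to Notch receptors on neighbouring cells. JAG1 (chr20:10637684-10673999) had the highest EPZ6438 change of the 9 tested genes. In C4-2B it read 6.24, 6.22 and 6.02 with DMSO and 6.80, 7.23 and 6.92 with EPZ6438. All EPZ6438 arrays lay above all DMSO arrays, and the rise was 0.83 (SE 0.12), or 1.77-fold (limma adjusted p = 1.5e-05). In LNCaP it read 6.67, 6.33 and 6.18 with DMSO and 6.52, 6.65 and 6.49 with EPZ6438. There the groups overlapped and the difference was 0.16 (95% interval -0.08 to 0.40). The EPZ6438 change in C4-2B exceeded that in LNCaP by 0.66 (SE 0.16, adjusted p = 0.013). That difference lost its call with either median centring (adjusted p = 1 over all probes and 0.0663 over detected probes), with only the compared arrays in the fit (0.0836), and without all arrays numbered 1, 2 or 3 (0.093, 0.127 and 0.0873). The C4-2B rise kept its call in 17 of 18 alternatives and lost it with centring on the median of all probes (adjusted p = 0.0908), and without background correction the rise was 0.43.

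With the siRNA JAG1 rose in LNCaP and did not pass the test in C4-2B. In LNCaP its values were 6.24, 6.33 and 6.25 with siControl and 6.66, 6.61 and 6.73 with siEZH2, a rise of 0.40 (SE 0.12, limma adjusted p = 0.0128). In C4-2B they were 5.40, 5.58 and 5.43 with siControl and 5.32, 5.49 and 5.43 with siEZH2, a difference of -0.06 (95% interval -0.30 to 0.18). The LNCaP groups did not overlap and the C4-2B groups did. The LNCaP call was lost without siEZH2 replicate 3 (adjusted p = 0.054) and with centring on all probes (0.70, adjusted p = 0.0619). It was also lost without all arrays numbered 1 or 3 (adjusted p = 0.062 and 0.122), and without background correction the LNCaP rise was 0.20. The siEZH2 change in C4-2B minus that in LNCaP was -0.46 (SE 0.16, adjusted p = 0.105) and did not pass. In C4-2B the siEZH2 change was lower than the EPZ6438 change, with a difference of -0.89 (SE 0.16, adjusted p = 0.000516).

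JAG2 (chr14:105140995-105168776) rose with siEZH2 in both lines. In LNCaP it read 8.79 to 8.90 on the siControl arrays and 9.31 to 9.83 on the siEZH2 arrays, a rise of 0.70 (SE 0.16), or 1.62-fold (limma adjusted p = 0.00224). In C4-2B it read 8.29 to 8.83 and 8.97 to 9.36, a rise of 0.61 (SE 0.16), or 1.53-fold (adjusted p = 0.00979). The groups did not overlap in either line. The LNCaP call was lost without all arrays numbered 3 (0.58, adjusted p = 0.0693), and with probes averaged the rise was 0.35 (adjusted p = 0.0415). The C4-2B call was lost without siControl replicate 2 (change 0.46, adjusted p = 0.0857) and without siEZH2 replicate 2 (0.53, adjusted p = 0.05). It was also lost without all arrays numbered 2 (0.38, adjusted p = 0.19). The second kept probe of JAG2 changed by 0.49 and 0.53 (SE 0.19) in LNCaP and C4-2B, and the third, detected on 3 of 24 arrays, by -0.12 and 0.14 (SE 0.12). With EPZ6438 the differences were -0.06 (95% interval -0.40 to 0.27) in LNCaP and 0.12 (-0.22 to 0.45) in C4-2B.

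**Figure D2:**
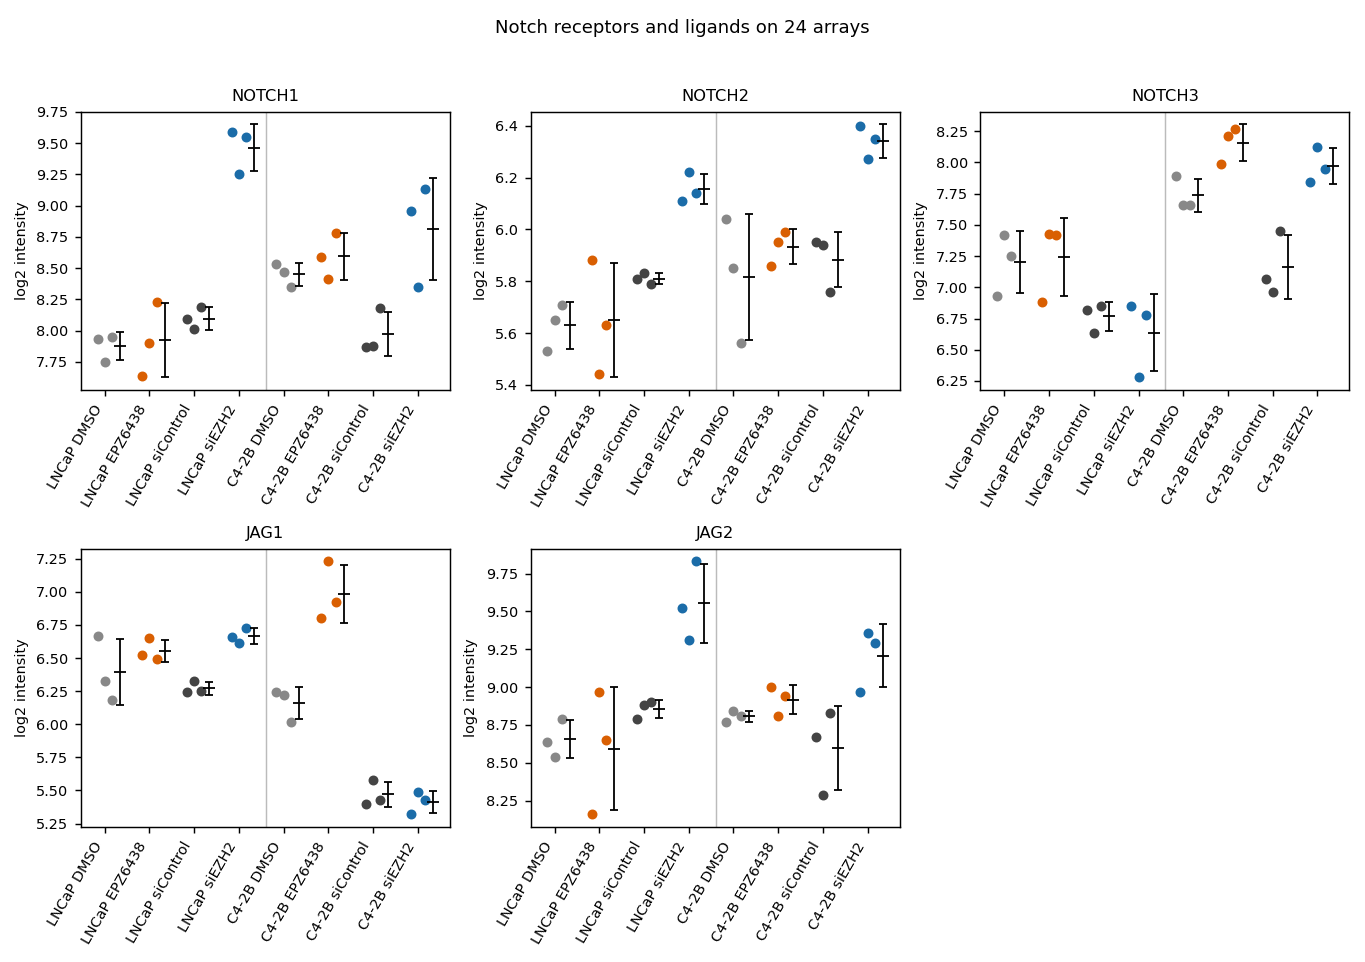
Normalised log2 intensity (y axis) of NOTCH1, NOTCH2, NOTCH3, JAG1 and JAG2 on each of the 24 arrays, by group (x axis), for the probe used. Filled points are arrays that detected the probe, and the bars beside them show the mean and SD of 3 arrays. NOTCH1 reads 9.25 to 9.59 on the LNCaP siEZH2 arrays and 7.64 to 8.23 on the other LNCaP arrays.

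HES2 (chr1:6415232-6419919), a repressor of the HES family, is the gene whose rise selected the set, and its values are given with no test. In LNCaP the brighter probe read 4.82, 4.86 and 4.53 with siControl and 5.53, 5.36 and 5.46 with siEZH2, a difference of 0.71 (SE 0.16), or 1.64-fold. With DMSO it read 5.35, 5.45 and 5.65, and with EPZ6438 5.67, 5.99 and 6.40, a difference of 0.54 (SE 0.16), or 1.45-fold. The LNCaP siEZH2 arrays therefore lay above their own siControl arrays but overlapped the LNCaP DMSO arrays. In C4-2B it read 5.31, 5.02 and 5.73 with siControl and 6.67, 6.49 and 6.77 with siEZH2, a difference of 1.29 (SE 0.16), or 2.45-fold. With DMSO it read 6.01, 6.07 and 6.15, and with EPZ6438 6.96, 6.84 and 7.13, a difference of 0.90 (SE 0.16), or 1.87-fold. In none of the 4 comparisons did treated and control arrays overlap.

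Ordered by mean log2 intensity, HES2 was highest in C4-2B with EPZ6438 (6.98, SD 0.15), then in C4-2B with siEZH2 (6.64, SD 0.14), C4-2B with DMSO (6.07, SD 0.07), LNCaP with EPZ6438 (6.02, SD 0.37), LNCaP with DMSO (5.48, SD 0.15), LNCaP with siEZH2 (5.45, SD 0.08), C4-2B with siControl (5.35, SD 0.35) and LNCaP with siControl (4.74, SD 0.18). Neighbours whose arrays overlapped were C4-2B DMSO and LNCaP EPZ6438, and the run from LNCaP DMSO through LNCaP siEZH2 to C4-2B siControl. Between the control conditions HES2 was lower with siControl than with DMSO, by 0.75 in LNCaP and 0.72 in C4-2B. It was higher in C4-2B than in LNCaP by 0.59 with DMSO and by 0.61 with siControl on the brighter probe, which gave 0.23 and 0.18 without background correction. On the dimmer probe these line differences were 0.09 and 0.08 (SE 0.14), with no siControl array detected.

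The dimmer HES2 probe did not show the same in LNCaP. There it read 4.52, 4.36 and 4.22 with siControl and 4.39, 4.71 and 4.40 with siEZH2, and 4.65, 4.91 and 5.00 with DMSO and 4.66, 5.14 and 4.90 with EPZ6438. The groups overlapped in both comparisons, with differences of 0.13 and 0.05 (SE 0.14). It was detected on none of the siControl arrays of either line and on 1 of the 3 LNCaP siEZH2 arrays, so in LNCaP no fold is given for the siRNA. In C4-2B it read 4.46, 4.36 and 4.54 with siControl and 5.53, 5.40 and 5.81 with siEZH2, at least 2.06-fold higher over the detection level. With DMSO it read 5.05, 5.06 and 4.71 and with EPZ6438 5.72, 5.82 and 5.70, a difference of 0.81 (SE 0.14). The C4-2B groups did not overlap on either probe. With the 2 probes averaged, the LNCaP differences were 0.42 with siEZH2 and 0.29 with EPZ6438, and without background correction the brighter probe gave 0.20 (siEZH2) and 0.21 (EPZ6438) for LNCaP, beside 0.54 and 0.46 for C4-2B.

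**Figure D3:**
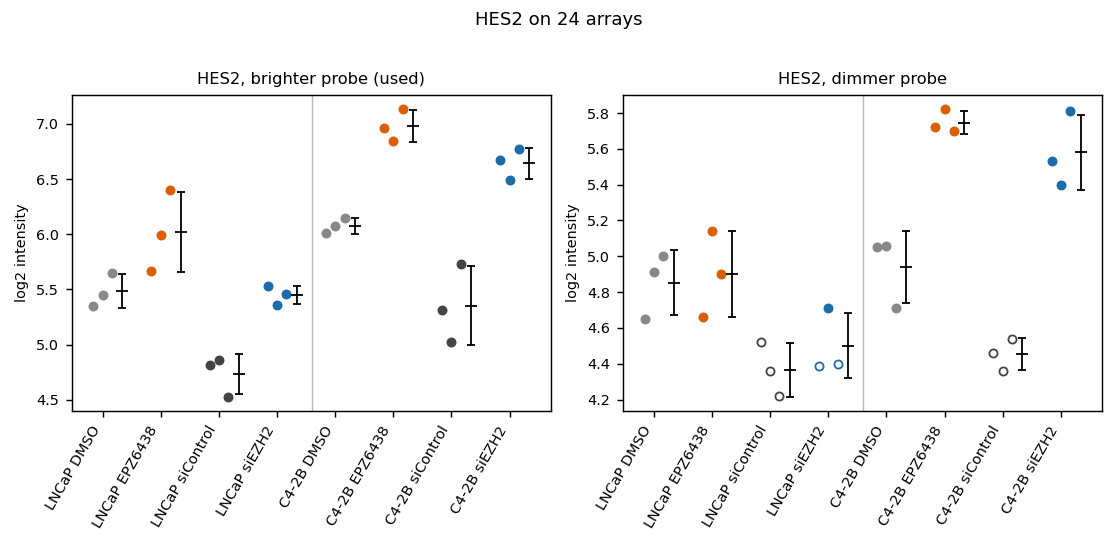
Normalised log2 intensity (y axis) of the 2 HES2 probes on each of the 24 arrays, by group (x axis). Filled points are arrays that detected the probe, open points are arrays that did not, and the bars show the mean and SD of 3 arrays. On the brighter probe treated arrays lie above their own controls in both lines, while on the dimmer probe the LNCaP groups overlap and the siControl arrays are not detected.

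HES1 (chr3:194136148-194138732), the repressor best known as a direct Notch target, was not called with either treatment. With siEZH2 it differed by -0.26 in LNCaP (95% interval -0.59 to 0.08) and by -0.06 in C4-2B (-0.39 to 0.28). With EPZ6438 it differed by 0.35 in LNCaP (0.02 to 0.69, limma adjusted p = 0.204) and by 0.30 in C4-2B (-0.03 to 0.64). The arrays overlapped in each of these comparisons. In LNCaP the DMSO arrays read 4.73, 5.07 and 5.16 and the EPZ6438 arrays 5.46, 4.91 and 5.66, and without EPZ6438 replicate 2 the difference was 0.57 (adjusted p = 0.0341).

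HES4 (chr1:998964-1000097), another HES repressor and one whose promoter holds the RBPJ letters, fell with siEZH2 in C4-2B. It read 10.35, 10.40 and 10.66 with siControl and 10.15, 9.76 and 10.09 with siEZH2, a change of -0.47 (SE 0.14, limma adjusted p = 0.0197). The groups did not overlap. The call was lost without siControl replicate 3 (-0.37, adjusted p = 0.1) and without siEZH2 replicate 2 (-0.35, adjusted p = 0.122), and with centring on all probes (-0.29, adjusted p = 0.458). It was also lost without all arrays numbered 2 or 3 (adjusted p = 0.23 and 0.108). In LNCaP the difference was 0.00 (95% interval -0.29 to 0.29). With EPZ6438 the differences were 0.02 (-0.27 to 0.31) in LNCaP and 0.31 (0.02 to 0.60, adjusted p = 0.155) in C4-2B. In C4-2B the siEZH2 change was lower than the EPZ6438 change by a difference of -0.78 (SE 0.20, adjusted p = 0.00879).

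HES6 (chr2:238238267-238240038), the relative that opposes HES1, fell with siEZH2 in LNCaP. Its arrays read 9.82, 9.83 and 9.80 with siControl and 9.61, 9.31 and 9.38 with siEZH2, a change of -0.38 (SE 0.12, limma adjusted p = 0.0216) with no overlap. The call was lost without siControl replicate 1 or 2 (adjusted p = 0.0541 and 0.0598) and without siEZH2 replicate 2 or 3 (0.0912 and 0.0739), and with centring on all probes (-0.08, adjusted p = 0.875). It was also lost without all arrays numbered 2 or 3 (adjusted p = 0.134 and 0.158). In C4-2B the arrays read 10.31, 10.33 and 10.53 with siControl and 10.27, 9.91 and 10.15 with siEZH2, also without overlap, and the change of -0.28 (SE 0.12, adjusted p = 0.123) did not pass. With EPZ6438 HES6 differed by -0.32 in LNCaP (95% interval -0.57 to -0.06, adjusted p = 0.124) and by 0.08 in C4-2B (-0.18 to 0.33). Without LNCaP EPZ6438 replicate 2 the LNCaP difference was -0.47 (adjusted p = 0.0257).

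HEY1 (chr8:79764010-79767767), a repressor of the HEY family, rose with siEZH2 in LNCaP. It read 6.40, 6.38 and 6.04 with siControl and 6.69, 6.71 and 6.81 with siEZH2, a rise of 0.47 (SE 0.10, limma adjusted p = 0.0015). In C4-2B it read 6.03, 5.88 and 6.11 with siControl and 5.93, 5.71 and 5.85 with siEZH2, which overlapped and differed by -0.18 (95% interval -0.39 to 0.04). The siEZH2 change in C4-2B minus that in LNCaP was -0.64 (SE 0.15, adjusted p = 0.0106). When the probes of HEY1 were averaged, the LNCaP rise was 0.23 (adjusted p = 0.0588) and the difference between lines -0.26 (adjusted p = 0.257), and centring on detected probes left both uncalled (adjusted p = 0.0649 and 0.144). The LNCaP rise also lost its call without all arrays numbered 3 (adjusted p = 0.0976). The difference between lines lost it without all arrays numbered 2 or 3 (0.128 and 0.204) and with centring on all probes (0.476). With EPZ6438 the C4-2B arrays went from 4.44, 4.52 and 4.61 to 4.69, 4.92 and 4.96, a rise of 0.34 (SE 0.10, adjusted p = 0.0305). Only 1 of the 3 C4-2B DMSO arrays detected the probe, and the call was lost without DMSO replicate 1 or 2 (adjusted p = 0.111 and 0.0729) and without EPZ6438 replicate 2 or 3 (0.106 and 0.119). It held in 6 of 18 alternatives, and the value was 0.08 (adjusted p = 0.213) without background correction and 0.17 (0.211) with probes averaged. In LNCaP the EPZ6438 difference was -0.09 (-0.30 to 0.13). A second HEY1 probe, detected on 5 of 24 arrays, differed by -0.01, 0.12, -0.33 and 0.01 (SE 0.12) with siEZH2 in the 2 lines (LNCaP first) and then with EPZ6438, so it does not carry the values of the first.

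**Figure D4:**
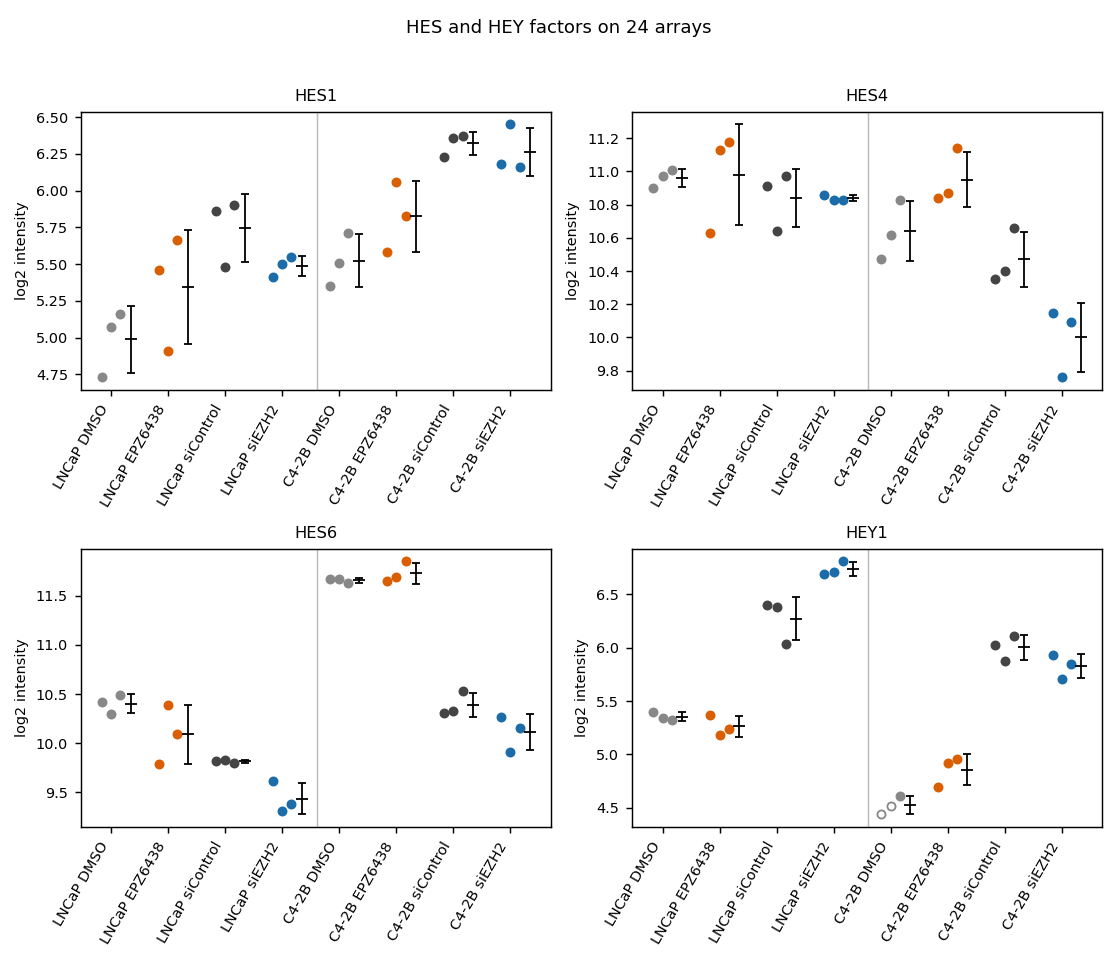
Normalised log2 intensity (y axis) of HES1, HES4, HES6 and HEY1 on each of the 24 arrays, by group (x axis), for the probe used. Filled points are arrays that detected the probe, open points are arrays that did not, and the bars show the mean and SD of 3 arrays. HES6 reads 11.63 to 11.85 in C4-2B with DMSO or EPZ6438 and 10.53 or lower on the other arrays, and HEY1 is lowest in C4-2B with DMSO.

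Differences between the lines were tested for each treatment, as were differences between the treatments within each line. These tests use the same control arrays as the treatment comparisons. With siEZH2 2 of the 9 genes differed between lines (NOTCH3 and HEY1, above), where 5.78% of all genes did, and with EPZ6438 1 did (JAG1), where 6.67% of all genes did. Between the treatments 3 of 9 differed in LNCaP, where 18.5% of all genes did. All 3 were higher with siEZH2, and besides NOTCH1 they were JAG2, by 0.76 (SE 0.23, limma adjusted p = 0.0227), and HEY1, by 0.55 (SE 0.15, adjusted p = 0.00998). The JAG2 difference lost its call without DMSO replicate 3 (adjusted p = 0.0601), EPZ6438 replicate 1 (0.0682), siControl replicate 1 (0.0509) or siEZH2 replicate 3 (0.0753). Leaving out all arrays numbered 1 or 3 lost it too (0.236 and 0.23). The HEY1 difference held in 20 of 24 alternatives.

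In C4-2B 4 of the 9 genes differed between the treatments, where 13.9% of all genes did. NOTCH1 was higher with siEZH2, and JAG1, HES4 and HEY1 were lower. The HEY1 difference was -0.51 (SE 0.15, limma adjusted p = 0.021). Its call was lost without DMSO replicate 1 (adjusted p = 0.0566), EPZ6438 replicate 3 (0.0588), siControl replicate 3 (0.0552) or siEZH2 replicate 2 (0.0567). It held in 13 of 24 alternatives, and the HES4 difference held in 21. With centring on all probes NOTCH1 in LNCaP was the only difference between the treatments still called among the 9 genes. With probes averaged, the HEY1 difference in C4-2B and the JAG2 difference in LNCaP were not called (adjusted p = 0.325 and 0.136). For HES2, with no test, the siEZH2 value exceeded the EPZ6438 value by 0.17 (SE 0.23) in LNCaP and by 0.39 (SE 0.23) in C4-2B, and the C4-2B value exceeded the LNCaP value by 0.58 for siEZH2 and by 0.37 for EPZ6438.

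Several of the genes differed between the lines under control conditions. On DMSO arrays HES6 read 11.67, 11.67 and 11.63 in C4-2B and 10.42, 10.30 and 10.49 in LNCaP, a difference of 1.25 (SE 0.12), or 2.39-fold (limma adjusted p = 9.5e-09). HEY1 went the other way, with 4.44 to 4.61 in C4-2B and 5.32 to 5.40 in LNCaP, a difference of -0.83 (SE 0.10, adjusted p = 6.58e-07). Only 1 of the 3 C4-2B DMSO arrays detected HEY1, and the difference was -0.22 (adjusted p = 0.000203) without background correction and -0.51 with probes averaged. Neither gene's arrays overlapped between lines. NOTCH1, NOTCH3 and HES1 were also higher in C4-2B, by 0.58, 0.53 and 0.53 (SE 0.16 each, adjusted p = 0.006, 0.0116 and 0.0108). The HES1 call was lost without LNCaP DMSO replicate 1 (adjusted p = 0.077) or C4-2B DMSO replicate 3 (0.0577), and the NOTCH3 call without LNCaP DMSO replicate 1 (0.0846) or C4-2B DMSO replicate 1 (0.0561). Without background correction the HES1 and NOTCH3 differences were 0.16 and 0.35. These 5 of 9 genes compare with 39.8% of all genes called.

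On siControl arrays 5 of 9 genes again differed between lines, where 46.9% of all genes did. HES6 and HES1 were higher in C4-2B, both by 0.57 (SE 0.12 and 0.16, limma adjusted p = 0.000401 and 0.00495). JAG1 was lower in C4-2B by a difference of -0.80 (SE 0.12, adjusted p = 3.1e-06), with no overlap. HES4 (-0.37, adjusted p = 0.0313) and HEY1 (-0.26, adjusted p = 0.0418) were lower too, with overlapping arrays. Without background correction the HES1 difference was 0.24 and the JAG1 difference -0.32. The HES4 call was lost without replicate 1 or 3 of LNCaP (adjusted p = 0.096 and 0.125) or replicate 1 or 2 of C4-2B (0.118 and 0.0947). The HEY1 call was lost without replicate 1 or 2 of LNCaP (0.18 and 0.165) or replicate 1 or 2 of C4-2B (0.0667 and 0.178). NOTCH1, higher in C4-2B on DMSO arrays, differed by -0.12 (95% interval -0.46 to 0.21) on siControl arrays.

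The control conditions themselves set several of these genes apart. Going from DMSO to siControl, HEY1 rose by 0.92 (SE 0.10, limma adjusted p = 6.76e-07) in LNCaP and by 1.48 (SE 0.10, adjusted p = 5.4e-11) in C4-2B, where 1 of the 3 DMSO arrays detected it. Both HEY1 rises kept their calls in all 18 alternatives, but the value fell to 0.36 in LNCaP and 0.46 in C4-2B without background correction. With probes averaged the HEY1 rises were 0.40 and 0.75. The second HEY1 probe, dim as described above, did not show them, with differences of -0.12 in LNCaP and 0.01 in C4-2B (SE 0.12). HES1 rose by 0.76 (SE 0.16, adjusted p = 0.00116) and 0.80 (SE 0.16, adjusted p = 0.000314), and HES6 fell by 0.58 (SE 0.12, adjusted p = 0.000877) and by a log2 change of -1.27 (SE 0.12, adjusted p = 1.06e-08). None of these pairs of groups overlapped. Without background correction the HES1 rises were 0.24 in LNCaP and 0.32 in C4-2B. The LNCaP HES1 call was lost without all arrays numbered 1 (adjusted p = 0.0608). In C4-2B JAG1 (-0.69, SE 0.12, adjusted p = 3.6e-05), NOTCH3 (-0.57, SE 0.16, adjusted p = 0.00688) and NOTCH1 (-0.48, SE 0.16, adjusted p = 0.0206) were lower with siControl. Without background correction the JAG1 value was -0.27. The NOTCH1 call was lost without DMSO replicate 1 or 2 (adjusted p = 0.0667 and 0.0533) or siControl replicate 1 or 2 (0.0763 and 0.075). In all, 3 of 9 genes were called in LNCaP, where 26.5% of all genes were, and 6 of 9 in C4-2B, where 40.2% were. With centring on all probes the calls among the 9 genes were HES6 and HEY1 between lines on DMSO arrays, JAG1 on siControl arrays, HEY1 for siControl against DMSO in LNCaP, and HEY1, HES1 and HES6 in C4-2B. Marker lists moved too: in C4-2B 8 of 11 luminal genes were lower with siControl (sums of 9441 to 10248 with DMSO and 4446 to 5193 with siControl) and the endothelial gene VWF changed by -2.39, and in LNCaP 4 of 11 luminal genes were higher (12313 to 13072 and 14399 to 15654) and the fibroblast or smooth muscle sum was 243 to 273 with DMSO and 119 to 137 with siControl. Their part in the Notch values was not tested. DMSO and siControl cells differ in transfection and belong to separate treatments, and what else differed between them cannot be told apart from it.

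**Figure D5:**
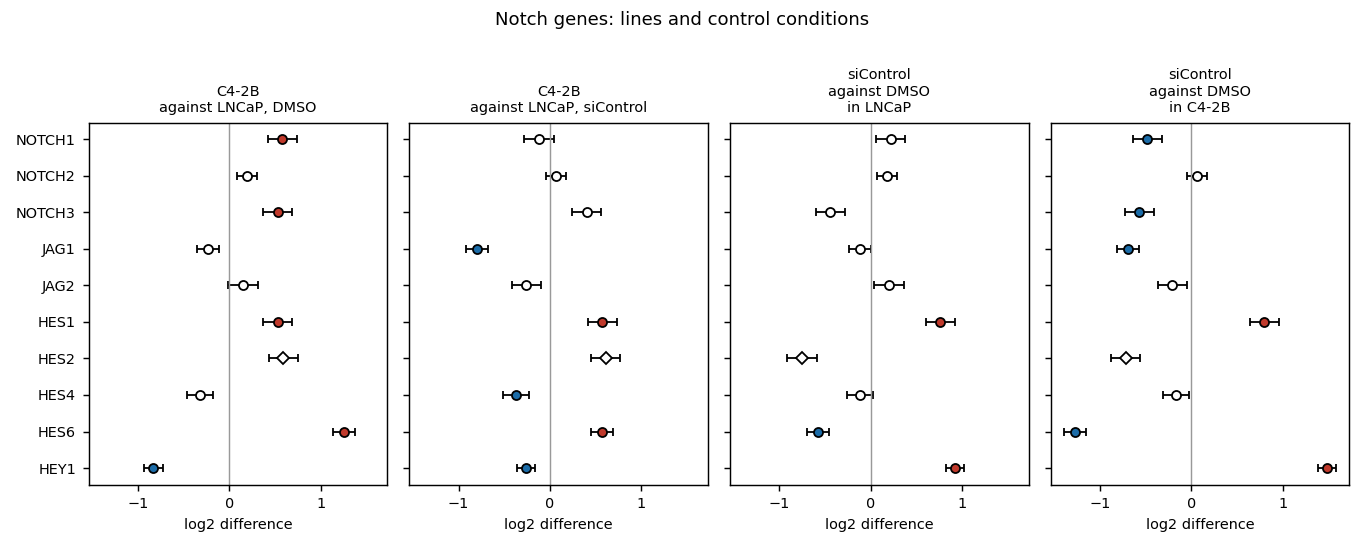
Log2 difference (x axis) of the 10 genes between lines (C4-2B minus LNCaP) on DMSO and siControl arrays, and between siControl and DMSO arrays in each line, with 3 arrays per group. Bars are standard errors from the fit over 24 arrays, red points were called higher, blue points lower, white circles were not called and white diamonds (HES2) were not tested. HEY1 lies at 0.92 and 1.48 and HES6 at -0.58 and -1.27 in the comparison of siControl with DMSO.

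Other genes of the pathway were taken from a list of 67, of which 46 were measured. The list holds other ligands and receptors, enzymes that modify or cut the receptor, nuclear partners, co-repressors, regulators of turnover and further targets. With siEZH2 8 rose and 1 fell in LNCaP (median log2 change 0.04, against 0.02 over all genes), and 9 rose and none fell in C4-2B (0.23, against 0.03). With EPZ6438 none rose and 1 fell in LNCaP (0.00, against 0.01), and 5 rose and none fell in C4-2B (0.07, against 0.00). No test was made for the list. In LNCaP 26.7% of all genes were called with siEZH2 and 6.68% with EPZ6438, and in C4-2B 18.7% and 15.2%.

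APH1A, a gamma-secretase subunit, rose with siEZH2 by 1.00 (SE 0.11, limma adjusted p = 2.49e-07) in LNCaP, and its C4-2B rise was 0.57 (adjusted p = 0.000759). Among the other gamma-secretase genes in LNCaP 3 were not called, with values of -0.06 for NCSTN, -0.05 for APH1B and -0.12 for PSEN2, while PSENEN rose by 0.63 (adjusted p = 0.00174); these 4 were named after their values were seen. ADAM17, a protease that sheds membrane proteins, rose by 0.91 (SE 0.14, adjusted p = 2.94e-05) in LNCaP, and its C4-2B rise was 0.59 (SE 0.14, adjusted p = 0.0051). In C4-2B the ligand DLL1 rose by 0.89 (SE 0.13, adjusted p = 4.88e-05), from 4.38 to 4.66 on siControl arrays to 5.17 to 5.51 on siEZH2 arrays, and ADAM10, the protease that makes the first activating cut, rose by 0.58 (SE 0.17, adjusted p = 0.0221). In LNCaP DLL1 rose by 0.58 (SE 0.13, adjusted p = 0.00202) and ADAM10 differed by 0.01. Among nuclear factors in LNCaP the co-repressor TLE1 rose by 1.09 (SE 0.11, adjusted p = 3.32e-08) and the acetyltransferase KAT2B changed by -0.68 (SE 0.13, adjusted p = 0.000236). ADAM17 has 3 annotated probes and APH1A, ADAM10 and KAT2B have 2 each, and only the brightest kept probe was read.

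With EPZ6438 in C4-2B, LFNG, which adds sugar to Notch receptors and alters their choice of ligand, rose by 0.91 (SE 0.11, limma adjusted p = 1.95e-06), from 7.73 to 7.89 to 8.62 to 8.90. BHLHE40, a basic helix-loop-helix repressor, rose by 0.74 (SE 0.16, adjusted p = 0.00197) and TLE1 by 0.60 (SE 0.11, adjusted p = 0.000288). In LNCaP the co-repressor CTBP1 fell with EPZ6438 by 0.38 (SE 0.11, adjusted p = 0.0378). With siEZH2 its mean went the other way, from 8.5 with siControl to 9.27 in LNCaP and from 8.6 to 8.91 in C4-2B. LFNG and CTBP1 have 3 annotated probes each, and only the brightest kept probe of each was read. RBPJ differed by between -0.08 and 0.23 in the 4 treatment comparisons and NRARP, a direct Notch target, by between -0.26 and -0.02, and neither was called; both were named after their values were seen.

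Genes of neuroendocrine and neural identity, which HES factors repress in other tissues, were measured for 9 of 23 listed, and 2 of the 9 were detected on all arrays. With siEZH2 1 fell in LNCaP and none was called in C4-2B by limma (1 had an unadjusted p under 0.05), and with EPZ6438 1 rose in each line. The share of all genes called in these comparisons was 26.7%, 18.7%, 6.68% and 15.2%. The gene called was SYT4, a synaptotagmin, with -0.34 (limma adjusted p = 0.00772) for siEZH2 in LNCaP and 0.30 (0.0491) and 1.57 (1.56e-11) for EPZ6438 in LNCaP and C4-2B. It was named after its values were seen.

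The 5 genes whose log2 values followed HES2 most closely over the 24 arrays were TIMP2 (Pearson r = 0.947), ITM2C (0.935), YEATS2 (0.932), FSCN1 (0.923) and CACNB3 (0.919). The arrays share lines and treatments, so the correlations are a description. TIMP2 differed by 0.79, 0.90, 0.52 and 0.96 with siEZH2 in LNCaP and C4-2B and EPZ6438 in LNCaP and C4-2B, beside 0.71, 1.29, 0.54 and 0.90 for HES2. Among the set NOTCH3 followed HES2 most closely (r = 0.872), HES6 stood at 0.595 and HEY1 at -0.56. NOTCH3 shared with HES2 its highest means in C4-2B with EPZ6438 and with siEZH2, but was at its lowest in LNCaP with siEZH2.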

How the data were processed

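Total RNA of each sample was hybridised to one Illumina bead array. The deposited table holds 2 columns per array, per the file headers: an intensity that was not normalised and its detection p-value. The submitters' processing notes name GenomeStudio, version not stated. The deposited processed table of the authors also holds an intensity, already background-subtracted and quantile normalised by its values, and served as an alternative. From the first table, limma 3.58.1 in R 4.3.3 corrected the background (neqc, with the detection p-values standing in for negative controls, offset 16), normalised by quantiles and took log2. A probe was kept if its detection p was under 0.05 on at least 3 arrays, and the brightest kept probe stood for a gene. Of 47311 probes 30108 name 1 gene and 17203 none or several. A mean per group was fitted on all 24 arrays, 12 comparisons were made, and p-values were adjusted by Benjamini-Hochberg over 13789 genes at 0.05. The code was tested on simulated data.

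The members and lists were chosen with earlier results of these data known. Named besides the members are EZH2, up to 3 called genes of the pathway list with the highest and up to 3 with the lowest change per treatment comparison, and the 5 genes most like HES2. Coordinates and promoters are from RefSeq, GRCh38.p14. Alternatives concerned background correction, normalisation, filter, probe choice, the arrays fitted, the replicate number as a block, and leaving out arrays. The number of arrays limits the precision.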

Additional observations from a re-analysis of the deposited data

Results flagged for a closer look

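Among the 9 tested genes 3 had a treatment change that differed between the lines by a test of the difference itself. With siEZH2 the change in C4-2B minus that in LNCaP was -0.64 for HEY1 (limma adjusted p = 0.0106) and 0.94 for NOTCH3 (0.0183). With EPZ6438 it was 0.66 for JAG1 (0.013). The calls for HEY1, NOTCH3 and JAG1 held in 19, 17 and 18 of 24 alternatives. Single arrays were not tested for lying apart from their group.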

How the results depend on the processing

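Of the 9 tested genes, the number called when arrays were centred on the median of all probes was 3 for siEZH2 in LNCaP, 0 for EPZ6438 in C4-2B, 0 for both differences between lines, 1 and 0 for siEZH2 minus EPZ6438 in LNCaP and C4-2B, 2 and 1 between lines on DMSO and siControl arrays, and 1 and 3 for siControl against DMSO in LNCaP and C4-2B. Over all genes the calls then numbered 1689, 1047, 28 and 265 for siEZH2 in LNCaP and C4-2B and EPZ6438 in LNCaP and C4-2B, against 3685, 2572, 921 and 2093. They were 79 and 35, against 797 and 920, for the differences between lines, 268 and 182, against 2550 and 1913, between treatments, 2194 and 3311, against 5493 and 6468, between lines, and 629 and 2438, against 3650 and 5537, for siControl against DMSO. The share of calls that were higher moved from 54.6% to 27.8% for the siEZH2 difference between lines, from 47.6% to 70.9% and from 47.7% to 67% between treatments in LNCaP and C4-2B, from 49.9% to 33.2% between lines on DMSO arrays, and from 47.9% to 58.5% and 47.4% to 69.2% for siControl against DMSO in LNCaP and C4-2B. With centring on detected probes the members called were 1 for EPZ6438 in C4-2B, 1 and 0 for the siEZH2 and EPZ6438 differences between lines, 2 between treatments in C4-2B and 3 between lines on siControl arrays, and all genes called were 355 and 1257 for EPZ6438 and 466 and 459 for the differences between lines. The mean of a gene's probes gave 1 for EPZ6438 in C4-2B and 1 for the siEZH2 difference. Fitting only the compared arrays gave 1 for EPZ6438 in C4-2B and 0 for its difference between lines, with 53 and 1364 genes called for EPZ6438 in LNCaP and C4-2B and 481 for the difference. Leaving out arrays gave 1 to 6 for siEZH2 in LNCaP, 2 to 5 in C4-2B, 0 to 2 and 1 to 2 for EPZ6438, 0 to 2 for each difference between lines, 1 to 4 and 1 to 5 between treatments, 2 to 6 and 2 to 5 between lines, and 3 to 4 and 4 to 6 for siControl against DMSO. The causes were not tested. For HES2 the siEZH2 minus EPZ6438 value in LNCaP was -0.01 without background correction and 0 to 0.37 without 1 of the LNCaP arrays, and its 4 treatment values without background correction were 0.20, 0.54, 0.21 and 0.46. Arrays of the same replicate number correlated at -0.28 to 0.32 after removal of the group means. With 3 arrays per group these values cannot settle whether the numbers pair the arrays. With the replicate number as a block HES4 between lines on DMSO arrays (-0.32, limma adjusted p = 0.0417), NOTCH3 between lines on siControl arrays (0.40, 0.0469) and NOTCH3 for siControl against DMSO in LNCaP (-0.44, 0.0478) were called, and no other member's call changed. Values near background, as for HEY1 in C4-2B, DLL1 in C4-2B with siControl and the dimmer HES2 probe, are limited by signal.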
